A study of Mus musculus with 13 samples.

Results

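Fatty acids and sphingolipids are the building blocks of myelin, the lipid-rich membrane that Schwann cells (SCs) wrap around axons. Their synthesis is described here through 38 genes in 13 sciatic nerve libraries of control and RaptorKO mice. The genes are a list of named enzymes of the textbook pathway with 1 regulator, out of 40787 genes counted. No measured value enters the list's definition, but it was chosen with earlier results of these data known. All 38 were found. Of these, 37 reached the count minimum in at least one comparison, and Elovl3 did not, with 1 count at most in any library.

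RaptorKO mice carry floxed Rptor alleles on a C57BL/6 background together with a tamoxifen-inducible Cre that is driven by a promoter of myelinating glia. Rptor encodes an essential subunit of the kinase complex mTORC1. Controls carry the same floxed alleles without Cre, and both genotypes were given tamoxifen when 2 months old. The crush followed another 2 months later, and nerves were taken at 5 days postcrush (dpc), as the distal stump of the injured nerve or the uninjured contralateral nerve. The epineurium was removed and 100 ng of total RNA per nerve was used. This gave 3 control contralateral, 4 RaptorKO contralateral, 3 control injured, and 3 RaptorKO injured libraries. Whole nerves were sequenced, so that each library holds SC transcripts together with those of fibroblasts, perineurial cells, vessels, immune cells, and any remaining fat. In such bulk samples, fewer cells of a type and less RNA per cell cannot be told apart.

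Fatty acid synthesis starts from acetyl-CoA, which Acly makes from citrate and Acss2 from acetate. Acaca and Acacb carboxylate it to malonyl-CoA, and Fasn builds palmitate from it with NADPH that Me1 helps to supply. Desaturases (Scd1, Scd2, Fads1 to Fads3) and elongases (the Elovl family) then shape chain length and double bonds. Gpam and the Agpat enzymes attach the chains to glycerol, and Lpin1 also acts in glycerolipid assembly. The Sptlc subunits, Kdsr, the ceramide synthases (Cers), and the Degs desaturases instead place the chains in ceramide. Fa2h adds the 2-hydroxyl group of myelin ceramides, Ugt8a adds galactose to make galactosylceramide, and Gal3st1 sulfates it to sulfatide. Sgms1 and Sgms2 make sphingomyelin and Ugcg makes glucosylceramide. Srebf1 encodes SREBP1, a transcription factor that activates many of the fatty acid genes, and mTORC1 is known to promote its activity.

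Library totals ranged from 8200458 to 13581775 counts. Rptor mRNA was lower in RaptorKO nerves on both sides, by a log2 fold change of -1.0 (SE 0.12, adjusted p = 5e-04) in contralateral and -0.68 (SE 0.15, adjusted p = 0.0167) in injured nerves, by edgeR's quasi-likelihood test. Structural myelin transcripts were abundant in every contralateral library, where 15 such genes summed to between 82208 and 107252 counts per 1000000 (CPM). RaptorKO contralateral 3 stood apart by its adipocyte transcripts. It held 48.6 CPM of Adipoq, which encodes the adipocyte hormone adiponectin, whereas the other RaptorKO contralateral libraries held 0 to 4.18 CPM. Control contralateral 3 (10.5 CPM) and control injured 3 (7.37 CPM) came next. Member counts that this changes are given with and without these libraries.

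Ranked by CPM per kilobase of exon, Scd2, the stearoyl-CoA desaturase that prevails in glia, was the most abundant of the 38 mRNAs in all 4 groups. Its mean was 853 CPM per kb in control contralateral, 556 in RaptorKO contralateral, 286 in control injured, and 181 in RaptorKO injured nerves. In control contralateral nerves Fa2h followed at 292, Elovl1 at 222, Ugt8a at 196, and Cers2 at 185 CPM per kb. These are the genes for the long, hydroxylated, galactose-bearing sphingolipids of myelin. In injured control nerves the order was different, since Fa2h had moved from rank 2 to rank 31 at 2.90 CPM per kb, and Degs1, which places the double bond of ceramide, had come to rank 2 at 77.9 CPM per kb.

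Whether loss of Raptor lowered these mRNAs in uninjured nerves was asked first. Of the 37 members tested in contralateral nerves, 9 were lower in RaptorKO and 0 were higher, at an adjusted p below 0.05 and a fold change above 1.2. Over all 11878 genes tested, the same rule called 5.68% lower and 4.49% higher, against 24.3% of the members lower. At an unadjusted p below 0.05 were 13 members (35.1%), beside 24.9% of all genes tested. The median log2 fold change of the members was -0.16, with 24 of 37 below 0, beside 0.01 over all genes tested.

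The 9 genes were Acly and Acss2 of acetyl-CoA supply, Scd2 and Fads2 of desaturation, Elovl4, Elovl6, and Elovl7 of elongation, Agpat3 of phospholipid assembly, and Cers2 of ceramide synthesis. No member of the galactolipid group or of the sphingomyelin and glucosylceramide group was called, nor was Acaca, Acacb, Fasn, or Me1. Among the 9 ceramide synthesis genes Cers2 was the only one called, and the group's median was 0.06.

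Of the 9 lower genes, 4 are shown with the 300 bases around their transcription start. They were picked because their windows hold CCAAT, the sequence bound by NF-Y, which is known to act beside SREBP at lipid gene promoters. The windows are from the RefSeq set for GRCm38.p6 and run from 250 bases before to 50 bases after the start. They are written 5′ to 3′ on the gene's strand, with CCAAT or its reverse complement ATTGG in capitals. In Acly and Elovl4 these letters lie in the 50 bases after the start, and in Acss2 and Cers2 before it. The Acly window is chr11:100527951-100528250 on the minus strand, that of Acss2 is chr2:155517793-155518092 on the plus strand, that of Elovl4 is chr9:83806256-83806555 on the minus strand, and that of Cers2 is chr3:95314940-95315239 on the plus strand.
Acly: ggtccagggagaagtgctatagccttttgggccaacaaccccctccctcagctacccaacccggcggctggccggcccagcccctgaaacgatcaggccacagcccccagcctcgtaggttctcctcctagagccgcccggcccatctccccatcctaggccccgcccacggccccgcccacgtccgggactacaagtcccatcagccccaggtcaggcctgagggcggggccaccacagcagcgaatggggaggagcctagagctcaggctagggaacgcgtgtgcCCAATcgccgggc
Acss2: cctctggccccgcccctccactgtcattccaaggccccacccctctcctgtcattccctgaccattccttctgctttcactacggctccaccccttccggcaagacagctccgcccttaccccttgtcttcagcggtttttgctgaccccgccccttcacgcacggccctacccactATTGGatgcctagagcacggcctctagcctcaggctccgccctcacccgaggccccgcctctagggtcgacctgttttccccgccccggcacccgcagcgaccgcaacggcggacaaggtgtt
Elovl4: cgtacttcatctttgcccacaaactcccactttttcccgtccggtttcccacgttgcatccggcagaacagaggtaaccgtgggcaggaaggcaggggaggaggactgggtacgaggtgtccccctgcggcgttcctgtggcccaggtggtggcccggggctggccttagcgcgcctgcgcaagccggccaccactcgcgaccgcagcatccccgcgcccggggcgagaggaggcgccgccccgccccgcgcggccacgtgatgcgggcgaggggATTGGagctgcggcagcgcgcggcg
Cers2: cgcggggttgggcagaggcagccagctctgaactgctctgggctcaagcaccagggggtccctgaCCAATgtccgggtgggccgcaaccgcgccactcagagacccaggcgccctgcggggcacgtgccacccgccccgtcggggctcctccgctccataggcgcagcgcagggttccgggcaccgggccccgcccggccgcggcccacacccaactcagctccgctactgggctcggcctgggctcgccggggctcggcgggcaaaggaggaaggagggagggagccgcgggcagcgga

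In the table of promoters 33 of the 38 members were matched, with 50 windows in all. Scd1, Scd2, Elovl3, Fads1, and Fa2h were not among them. CCAAT, searched on both strands, occurred in 46.0% of the member windows and in 37.4% of all 32851 windows. Counted by gene, it was in a window of 57.6% of the 33 members and of 41.1% of all 27025 genes. Of the 9 lower genes 8 were matched and 4 held it. The E-box CACGTG was present in 6 of the 50 member windows and 7.15% of all windows, the Egr-type element GCGTGGG in 5 of 50 and 5.04%, and the sterol regulatory element in the form TCACNCCAC in 0 of 50 and 1.24%. A match is a description of these letters in this window. It does not identify a bound site. The letters of the 4 motifs do not contain one another.

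Scd2 (ENSMUSG00000025203, chromosome 19, 44293674 to 44306864 of GRCm38) introduces the first double bond of oleate and palmitoleate. It stood at 4526, 4718, and 4731 CPM in the control contralateral libraries and at 2891, 3210, 2638, and 3404 CPM in the RaptorKO ones. The groups did not overlap, and the log2 fold change was -0.60 (SE 0.10, adjusted p = 0.00437). Fads2, the delta-6 desaturase of polyunsaturated fatty acids (ENSMUSG00000024665, chromosome 19, 10062765 to 10101746), stood at 146, 130, and 135 CPM in controls and at 84.4, 75.1, 77.8, and 95.2 CPM in RaptorKO nerves. Every RaptorKO library was thus below every control, and the log2 fold change was -0.70 (SE 0.096, adjusted p = 0.0013). Fads1, its delta-5 partner, fell short of the threshold, with mean values of 591 and 508 CPM, overlapping groups, and a log2 fold change of -0.20 (95% confidence interval -0.40 to 0.00, adjusted p = 0.211), but was called lower without RaptorKO contralateral 4. Reads of Scd1 and Scd2, which are close in sequence, may have been shared out between them by the counting. Fads3 did not move by more than the spread between libraries, at 75.8 and 74.6 CPM.

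Acss2, which activates acetate, had the largest fold change of the precursor genes. It was measured at 66.6, 55.1, and 62.5 CPM in controls and at 35.8, 35.6, 39.3, and 35.3 CPM in RaptorKO nerves, with a log2 fold change of -0.73 (SE 0.098, adjusted p = 0.00112). Acly, the main source of cytosolic acetyl-CoA, was at 189, 212, and 200 CPM in controls and at 162, 168, 166, and 146 CPM in RaptorKO nerves. This smaller difference (-0.30, SE 0.077, adjusted p = 0.0358) also left no overlap between the groups. Its call was lost when any of 6 of the 7 libraries was left out, all but RaptorKO contralateral 2, with an adjusted p of up to 0.162. Acaca, the main acetyl-CoA carboxylase, had a log2 fold change of similar size (-0.31, SE 0.096) but did not pass (adjusted p = 0.0725). Me1 was at 267 and 237 CPM on average (adjusted p = 0.258).

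Elongation had the largest share of lower genes, 3 of the 5 tested. Elovl6, which lengthens palmitate to stearate, stood at 408, 462, and 404 CPM in controls and at 294, 276, 236, and 294 CPM in RaptorKO nerves, with a log2 fold change of -0.61 (SE 0.097, adjusted p = 0.00334). Elovl7 was at 164, 176, and 153 CPM against 123, 124, 110, and 137 CPM (-0.39, SE 0.091, adjusted p = 0.023). Elovl4, an elongase of very long chains, was a low transcript at 29.9, 25.1, and 23.1 CPM in controls and varied more among RaptorKO nerves, at 18.8, 15.3, 10.9, and 6.34 CPM. Its log2 fold change of -0.99 was the largest of the members, with an SE of 0.28 and an adjusted p of 0.0479. The Elovl4 call was lost without any one of control contralateral 1, 2, or 3 or RaptorKO contralateral 2 or 3, and that of Elovl7 without control contralateral 1 or 2 or RaptorKO contralateral 1. Elovl1, the elongase of saturated very long chains and the most abundant of the family per kb, did not pass at means of 604 and 533 CPM (-0.16, 95% confidence interval -0.39 to 0.06, adjusted p = 0.369).

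Cers2, the ceramide synthase for very long acyl chains, was at 705, 703, and 630 CPM in controls and at 478, 522, 418, and 477 CPM in RaptorKO nerves (-0.50, SE 0.092, adjusted p = 0.00724). All RaptorKO values lay below the lowest control. The other ceramide synthases were not called, among them Cers4 at 152 and 156 CPM and Cers6 at 12.1 and 16.7 CPM. Agpat3, an acyltransferase of phospholipid assembly, was at 321, 301, and 271 CPM against 208, 221, 210, and 234 CPM (-0.43, SE 0.085, adjusted p = 0.0104). The Agpat3 call was lost without control contralateral 1 (adjusted p = 0.0566) or control contralateral 2 (adjusted p = 0.0557). Scd2, Fads2, Elovl6, Acss2, and Cers2 were called whichever of the 7 libraries was left out, and without control contralateral 1 or 2 they were the only 5 called.

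The regulator Srebf1 was itself not called, at 72.1, 61.8, and 83.7 CPM in controls and at 49.4, 53.1, 72.2, and 56.5 CPM in RaptorKO contralateral nerves. These groups overlapped (-0.31, 95% confidence interval -0.62 to 0.01, adjusted p = 0.211). Srebf1 overlaps Rai1, Acss2 overlaps Ggt7 and Gss, Cers2 overlaps Setdb1, and Elovl1 overlaps Cdc20, each on the other strand. Whether the counts used strand is not stated, so reads in the shared parts may come from either gene.

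**Figure D1:**
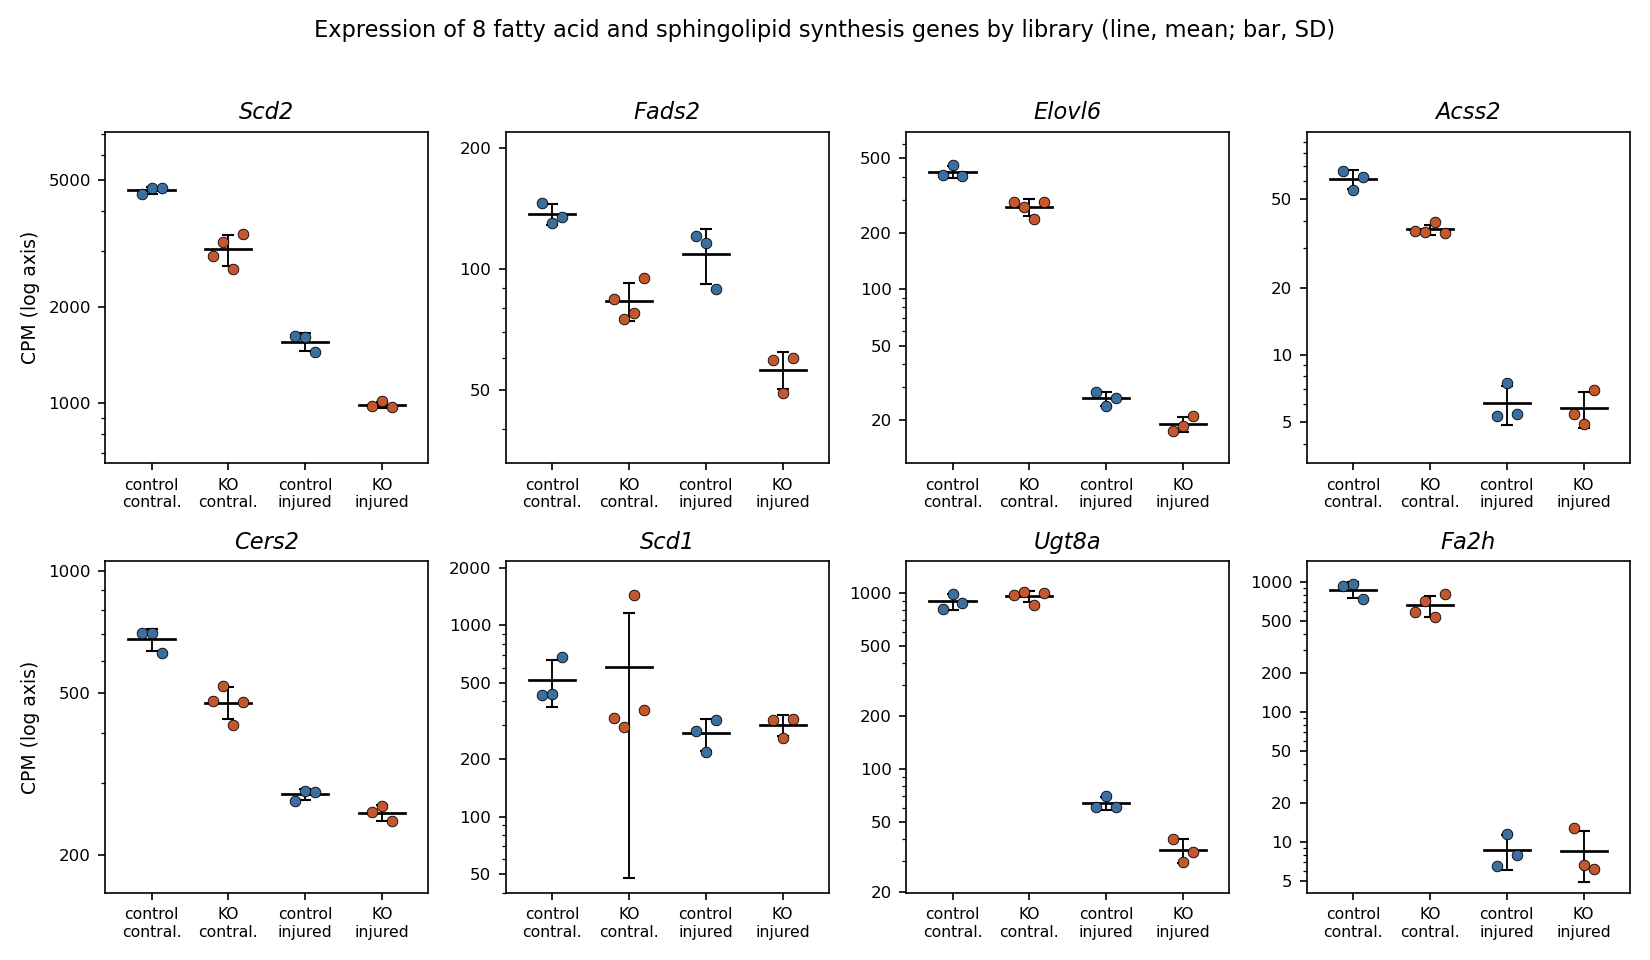
CPM on a log axis for 8 genes in each of the 13 libraries (points), with the mean (line) and SD (bar) of each group, control in blue and RaptorKO (KO) in orange. Scd2, Fads2, Elovl6, Acss2, and Cers2 were lower in all RaptorKO contralateral libraries than in any control, 1 Scd1 point stands at 1440 CPM in RaptorKO contralateral 3, and Fa2h and Ugt8a were far lower in all injured libraries.

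None of the 3 galactolipid genes was called in contralateral nerves. Ugt8a was at 810, 988, and 873 CPM in controls and at 966, 1005, 845, and 992 CPM in RaptorKO nerves, which overlapped (0.12, 95% confidence interval -0.10 to 0.33, adjusted p = 0.514). Fa2h was at 929, 966, and 737 CPM against 590, 716, 539, and 812 CPM, and was not called (-0.38, SE 0.15, adjusted p = 0.141). Without RaptorKO contralateral 4, the highest of its group, Fa2h was called at -0.50 (adjusted p = 0.0411). Gal3st1 was at 95.9 and 83.8 CPM on average (adjusted p = 0.374).

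Scd1 and Fasn depended on 1 library. Scd1, the desaturase that prevails in fat tissue, was at 433, 438, and 681 CPM in control contralateral libraries and at 326, 295, 1440, and 360 CPM in the RaptorKO ones. The value of 1440 CPM belonged to RaptorKO contralateral 3, the library with the most adipocyte RNA. With it, the log2 fold change was 0.24 (SE 0.50, adjusted p = 0.818), and without it -0.64 (SE 0.16, adjusted p = 0.0339). Fasn was at 413, 361, and 397 CPM against 286, 313, 433, and 279 CPM, where again the single high value was RaptorKO contralateral 3. Its log2 fold change was -0.23 (SE 0.14, adjusted p = 0.338) with that library and -0.39 (SE 0.090, adjusted p = 0.0227) without it. Acacb followed the same order, with 28.4 CPM in RaptorKO contralateral 3 and 8.67 to 12.3 CPM in the other RaptorKO libraries. Scd1 and Fasn were not called when control contralateral 3, which held the highest control Scd1, was left out as well. Nor were they called with the adipocyte marker level as a covariate.

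The 18 adipocyte markers summed to 214 to 499 CPM in control contralateral and 208 to 1447 CPM in RaptorKO contralateral libraries, and 0 of the 13 tested were called. In the library with the highest marker sum of each group, Scd2 was lowest among RaptorKO nerves (RaptorKO contralateral 3, 2638 CPM). It was highest among controls (control contralateral 3, 4731 CPM). Leaving out control contralateral 3 and RaptorKO contralateral 3, the 2 contralateral libraries above 5 CPM of Adipoq, 6 members were lower (Acss2, Agpat3, Cers2, Elovl6, Fads2, and Scd2). Of all genes tested, 2.75% were lower in that fit, beside 5.68% with all 7 libraries. With the summed level of 4 adipocyte markers as a covariate, 11 were lower, the 9 called without it with Acaca and Fa2h. The share of all genes called lower was then 8.38%.

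**Figure D2:**
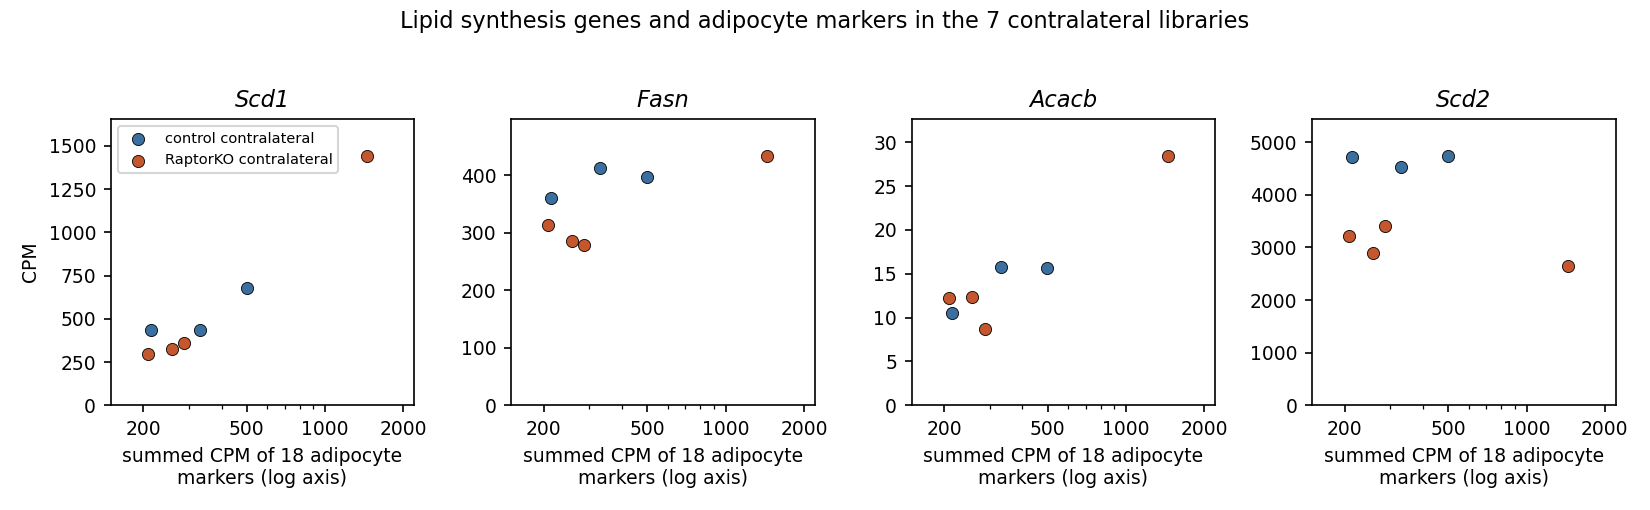
CPM of 4 genes (vertical axes, from 0) against the summed CPM of 18 adipocyte markers (horizontal log axis) in the 7 contralateral libraries, control in blue and RaptorKO in orange. The point at 1447 CPM of markers, RaptorKO contralateral 3, has the highest Scd1 (1440 CPM), Fasn (433 CPM), and Acacb (28.4 CPM) and the lowest Scd2 (2638 CPM).

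Related pathways were compared with the same test. Of the 22 sterol synthesis genes tested, 12 were lower and 0 higher in RaptorKO contralateral nerves, with a median of -0.40. Among them were Hmgcs1 (-0.72, adjusted p = 0.000501), which makes HMG-CoA, and Fdps (-0.49, adjusted p = 0.00352), which makes farnesyl diphosphate. Of 34 further fatty acid and sphingolipid synthesis genes, 3 were lower (8.82%, beside 5.68% of all genes). They were Slc25a1 (-0.75, adjusted p = 0.00117), the mitochondrial citrate carrier that feeds Acly, Tecr (-0.36, adjusted p = 0.016), the last enzyme of the elongation cycle, and Acsbg1 (-1.98, adjusted p = 0.00587), an acyl-CoA synthetase. None of 12 regulators of SREBP was called, with 2 of them at an unadjusted p below 0.05 (16.7%, beside 24.9% of all genes). Of 25 fatty acid oxidation genes 1 was lower (Hadhb, -0.29, adjusted p = 0.0399), or 4.0%, beside the 5.68% of all genes. Of 18 sphingolipid breakdown genes 0 were called and 5 had an unadjusted p below 0.05 (27.8%, beside 24.9% of all genes).

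Other cell types moved at the same time. Macrophage markers were higher in RaptorKO contralateral nerves for 10 of 15 tested, with summed levels of 268 to 304 CPM in controls and 436 to 544 CPM in RaptorKO nerves. Fibroblast and perineurial markers summed to 8115 to 8846 CPM in controls and 10965 to 14775 CPM in RaptorKO nerves. Of these 10 markers, 3 were higher, the fibroblast genes Pdgfra, Lum, and Dcn, and no perineurial one was called. Erythrocyte markers were higher for 2 of 4. Structural myelin genes overlapped in sum, at 97262 to 107252 against 82208 to 101427 CPM, with 2 of 15 lower, Ncmap (-0.52) among them, and Pmp2 (0.62) higher. The part of these shifts in the lower lipid synthesis mRNAs was not tested.

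The same comparison in injured nerves asks what loss of Raptor did at 5 dpc. Of 35 members tested, 3 were lower in RaptorKO (Scd2, Fads2, and Ugt8a) and 1 was higher (Acacb). This is 8.57% lower and 2.86% higher, beside 4.44% lower and 4.09% higher of the 12040 genes tested. The median of the members was -0.10 and that of all genes 0.00. Elovl4 and Degs2 were below the count minimum here.

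Scd2 was lower in injured RaptorKO nerves too. It was at 1629, 1611, and 1444 CPM in controls and at 981, 1015, and 971 CPM in RaptorKO nerves (-0.64, SE 0.11, adjusted p = 0.00483), with no overlap. Fads2 was at 121, 116, and 89.2 CPM against 59.4, 49.4, and 60.0 CPM (-0.94, SE 0.13, adjusted p = 0.00192). All 3 RaptorKO values again lay below the lowest control. Scd2 and Fads2 were the members called lower on both sides, in comparisons that share no libraries but draw on both nerves of the same mice.

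Ugt8a (ENSMUSG00000032854, chromosome 3, 125865271 to 125938619), the galactosyltransferase of myelin galactolipids, was lower in RaptorKO nerves on the injured side, where its level was also low in controls. It was at 60.2, 70.3, and 60.7 CPM in injured controls and at 40.0, 29.6, and 33.8 CPM in injured RaptorKO nerves (-0.87, SE 0.14, adjusted p = 0.00325). The highest RaptorKO value was well below the lowest control. Gal3st1, the next enzyme of the same branch, was at 15.9, 30.1, and 23.0 CPM against 15.4, 16.5, and 10.4 CPM, and its groups overlapped (-0.69, 95% confidence interval -1.24 to -0.14, adjusted p = 0.128). Fa2h was at 6.60, 11.6, and 7.96 CPM in controls and at 12.8, 6.63, and 6.25 CPM in RaptorKO nerves, which could not be separated at this level (95% confidence interval -0.73 to 0.69).

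Acacb encodes the mitochondrial acetyl-CoA carboxylase, whose malonyl-CoA restrains fatty acid oxidation (ENSMUSG00000042010, chromosome 5, 114146535 to 114250761). It was higher in the injured RaptorKO nerves, at 5.41, 7.46, and 8.06 CPM in controls and at 15.2, 18.8, and 13.2 CPM in RaptorKO nerves (1.19, SE 0.23, adjusted p = 0.00998). In these RaptorKO libraries Adipoq, Plin1, Cidec, and Cfd, which define adipocytes, were between 0 and 0.0919 CPM. The 18 adipocyte markers summed to 118 to 279 CPM in injured control and 144 to 188 CPM in injured RaptorKO libraries. Of the 5 tested, Lipe, a lipase, was higher (0.79, adjusted p = 0.0176). Cd36, a fatty acid transporter that macrophages and endothelium also carry, was at 27.9 and 57.7 CPM on average and was not called (1.05, adjusted p = 0.065). Pparg, a regulator of adipocyte genes, was at 2.76 and 4.08 CPM, below the count minimum. The part of these in the higher Acacb was not tested.

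Members lower on the contralateral side and not called after injury are given as means in control and RaptorKO injured nerves. They were Acss2 at 6.06 and 5.77 CPM, Acly at 107 and 98.5 CPM, Cers2 at 282 and 254 CPM, and Elovl7 at 15.7 and 17.3 CPM. Agpat3 was at 238 and 196 CPM without overlap, and was not called. Elovl6 kept the same sign at 26.1 and 19.1 CPM without overlap, but did not pass (-0.44, 95% confidence interval -0.77 to -0.11, adjusted p = 0.102). Fasn was likewise lower without overlap, at 130, 124, and 120 against 111, 81.2, and 93.2 CPM, and did not pass (-0.38, adjusted p = 0.0799). Srebf1 was at 81.1 and 75.0 CPM, and Scd1 at 273 and 300 CPM. Degs1 was at 202 and 158 CPM without overlap. It was called lower only with DESeq2 or with all 13 libraries in 1 fit.

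Around these genes, 0 of 21 sterol synthesis genes were called in injured nerves, with a median of -0.22. At an unadjusted p below 0.05 were 5 of them (23.8%, beside 21.5% of all genes tested). Samd8 (-0.39, adjusted p = 0.042), an enzyme of the sphingomyelin synthase family, was the one called of 31 further synthesis genes, and Psap (-0.55, adjusted p = 0.00947), the precursor of the saposins that help lysosomes degrade sphingolipids, the one called of 19 breakdown genes. These are 3.23% and 5.26% of the lists lower, near the 4.44% of all genes. Macrophage markers were called for Gpnmb alone of 18 (-0.69, adjusted p = 0.0373), with sums of 5571 to 6298 CPM in controls and 3395 to 6462 CPM in RaptorKO nerves. Fibroblast and perineurial markers were higher for 3 of 10 and erythrocyte markers for 3 of 3. Of 15 structural myelin genes 2 were lower and 2 higher, with sums of 3588 to 4482 CPM in controls and 2999 to 3617 CPM in RaptorKO nerves. The part of these shifts in the member genes was not tested.

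**Figure D3:**
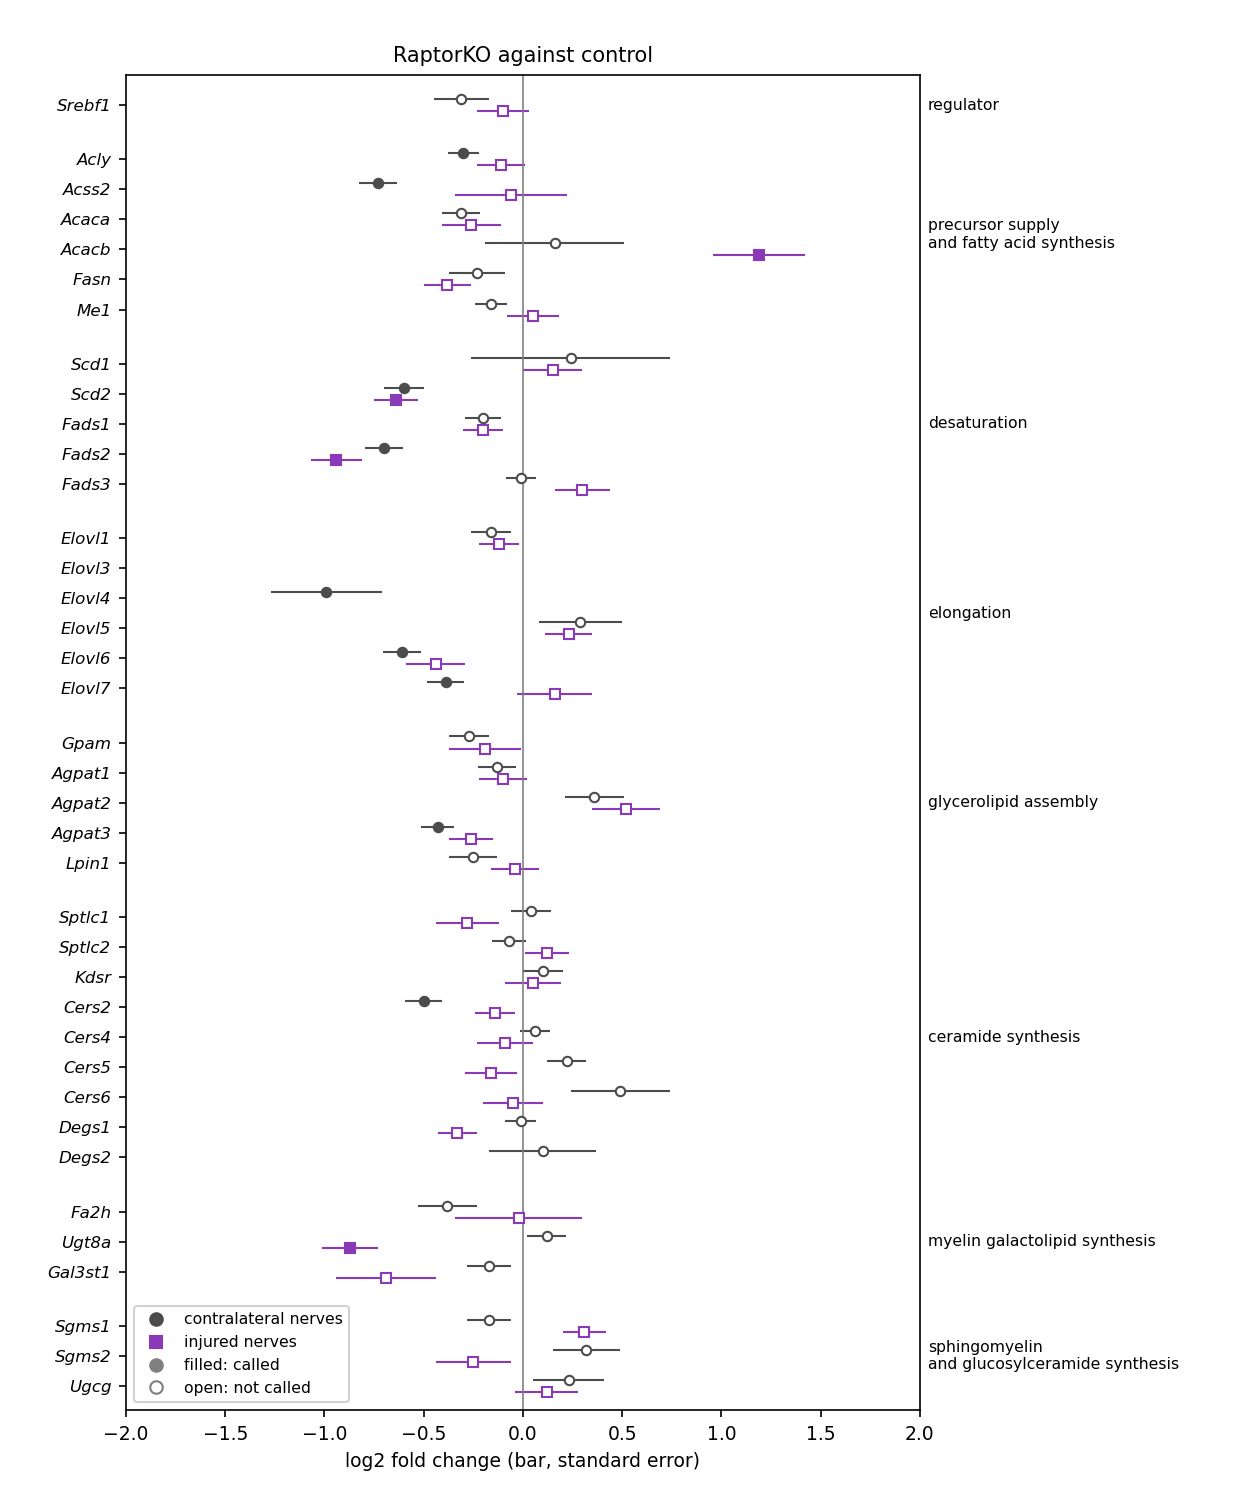
Log2 fold change of RaptorKO against control (points) with its standard error (bars) for each member, by role, in contralateral (grey circles) and injured (purple squares) nerves. Filled symbols passed the threshold, which on the contralateral side were 9 genes, all lower, and on the injured side Scd2, Fads2, and Ugt8a, lower, and Acacb, higher.

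Most of the pathway was lower after crush in both genotypes. In control nerves 29 of 37 members were lower at 5 dpc than on the contralateral side and 3 were higher, beside 32.9% lower and 32.4% higher of 12430 genes tested. That is 78.4% of the members lower, with a median of -1.17 and 0.00 over all genes. All 6 precursor genes, all 5 desaturases, and all 3 galactolipid genes were lower. The 5 members not called were Srebf1, Elovl5, Agpat1, Sptlc1, and Cers5. Without control contralateral 3 and control injured 3, the libraries above 5 CPM of Adipoq, 26 were lower, since Agpat2 (-0.41, adjusted p = 0.122) and Fads2 (-0.24, adjusted p = 0.0746) did not pass and Degs2 was under the count minimum. The share of all genes called lower was 30.2% in that fit. Agpat2 was lower with all libraries (-0.62, adjusted p = 0.0102).

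Fa2h (ENSMUSG00000033579, chromosome 8, 111345135 to 111393824) fell the most. From 929, 966, and 737 CPM in contralateral controls it was at 6.60, 11.6, and 7.96 CPM in injured controls, a log2 fold change of -6.68 (SE 0.22, adjusted p = 2.09e-10). Elovl6 came next, from 408, 462, and 404 CPM to 28.3, 23.8, and 26.4 CPM (-4.05, SE 0.12, adjusted p = 1.18e-10). Every injured library lay far below every contralateral one for both genes. Ugt8a fell to a mean of 63.7 CPM (-3.83, SE 0.13), and Elovl4 (-3.74, SE 0.22) and Elovl7 (-3.41, SE 0.13) had changes of similar size. Those of Fasn (-1.67, SE 0.099) and Scd2 (-1.60, SE 0.084) were nearer to the median of the members.

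Members of 1 enzyme family moved in opposite directions. Of the ceramide synthases, Cers4 (-2.26, SE 0.096) and Cers2 (-1.29, SE 0.10) fell, Cers5 was not called (0.20, 95% confidence interval -0.03 to 0.43), and Cers6, which uses shorter chains, rose. It was at 11.7, 13.1, and 11.4 CPM in contralateral and at 30.8, 27.6, and 25.0 CPM in injured controls (1.18, SE 0.15, adjusted p = 2.45e-05). Ugcg, which diverts ceramide to glucosylceramide, rose from 14.1, 14.7, and 13.8 CPM to 42.3, 35.0, and 39.1 CPM (1.42, SE 0.13, adjusted p = 1.7e-06). Sgms2, the sphingomyelin synthase of the plasma membrane, also rose (0.52, SE 0.18, adjusted p = 0.0231), a call lost without control contralateral 1 or 2 or control injured 1, whereas Sgms1, that of the Golgi, fell (-1.36, SE 0.087).

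All 5 desaturases fell. Fads1 had the largest change (-1.82, SE 0.11) and Fads2 the smallest (-0.36, SE 0.11, adjusted p = 0.0121), the latter from 137 to 109 CPM on average. Without control injured 3 the fall of Fads2 did not pass (-0.22, adjusted p = 0.0557). Srebf1 itself was not called, at 72.5 CPM before and 81.1 CPM after injury on average (0.14, 95% confidence interval -0.11 to 0.38, adjusted p = 0.299).

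In RaptorKO nerves 26 of 37 members were lower and 2 higher (Ugcg and Cers6) after injury, beside 28.5% lower and 30.5% higher of 12515 genes. The median was -0.86, and 0.03 over all genes. Fa2h (-6.29, SE 0.29), Ugt8a (-4.79, SE 0.14), and Elovl6 (-3.86, SE 0.13) had the largest falls. Ugcg (1.34, SE 0.19) and Cers6 (0.67, SE 0.26, adjusted p = 0.0441) rose. Degs2 was at 4.95 and 2.72 CPM on average before and after injury (-0.86, adjusted p = 0.0452), and with the 2 nerves of a mouse paired as a block it was not called (-0.89, adjusted p = 0.0549). The Cers6 call was lost without any one of RaptorKO contralateral 1, 2, or 4 or RaptorKO injured 1 or 3. Scd1 was not called in these nerves (-1.02, SE 0.50, adjusted p = 0.107), with the library of 1440 CPM among its contralateral values, and it was called without RaptorKO contralateral 2 (-1.25, adjusted p = 0.0488), whereas without the high library itself it was at -0.14 (adjusted p = 0.357). Srebf1 was not called at 57.8 and 75.0 CPM on average (0.37, adjusted p = 0.0588), but was without RaptorKO contralateral 3 (0.48, adjusted p = 0.0127) or RaptorKO injured 3 (0.49, adjusted p = 0.0218). Acacb was at 15.4 and 15.7 CPM on average.

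**Figure D4:**
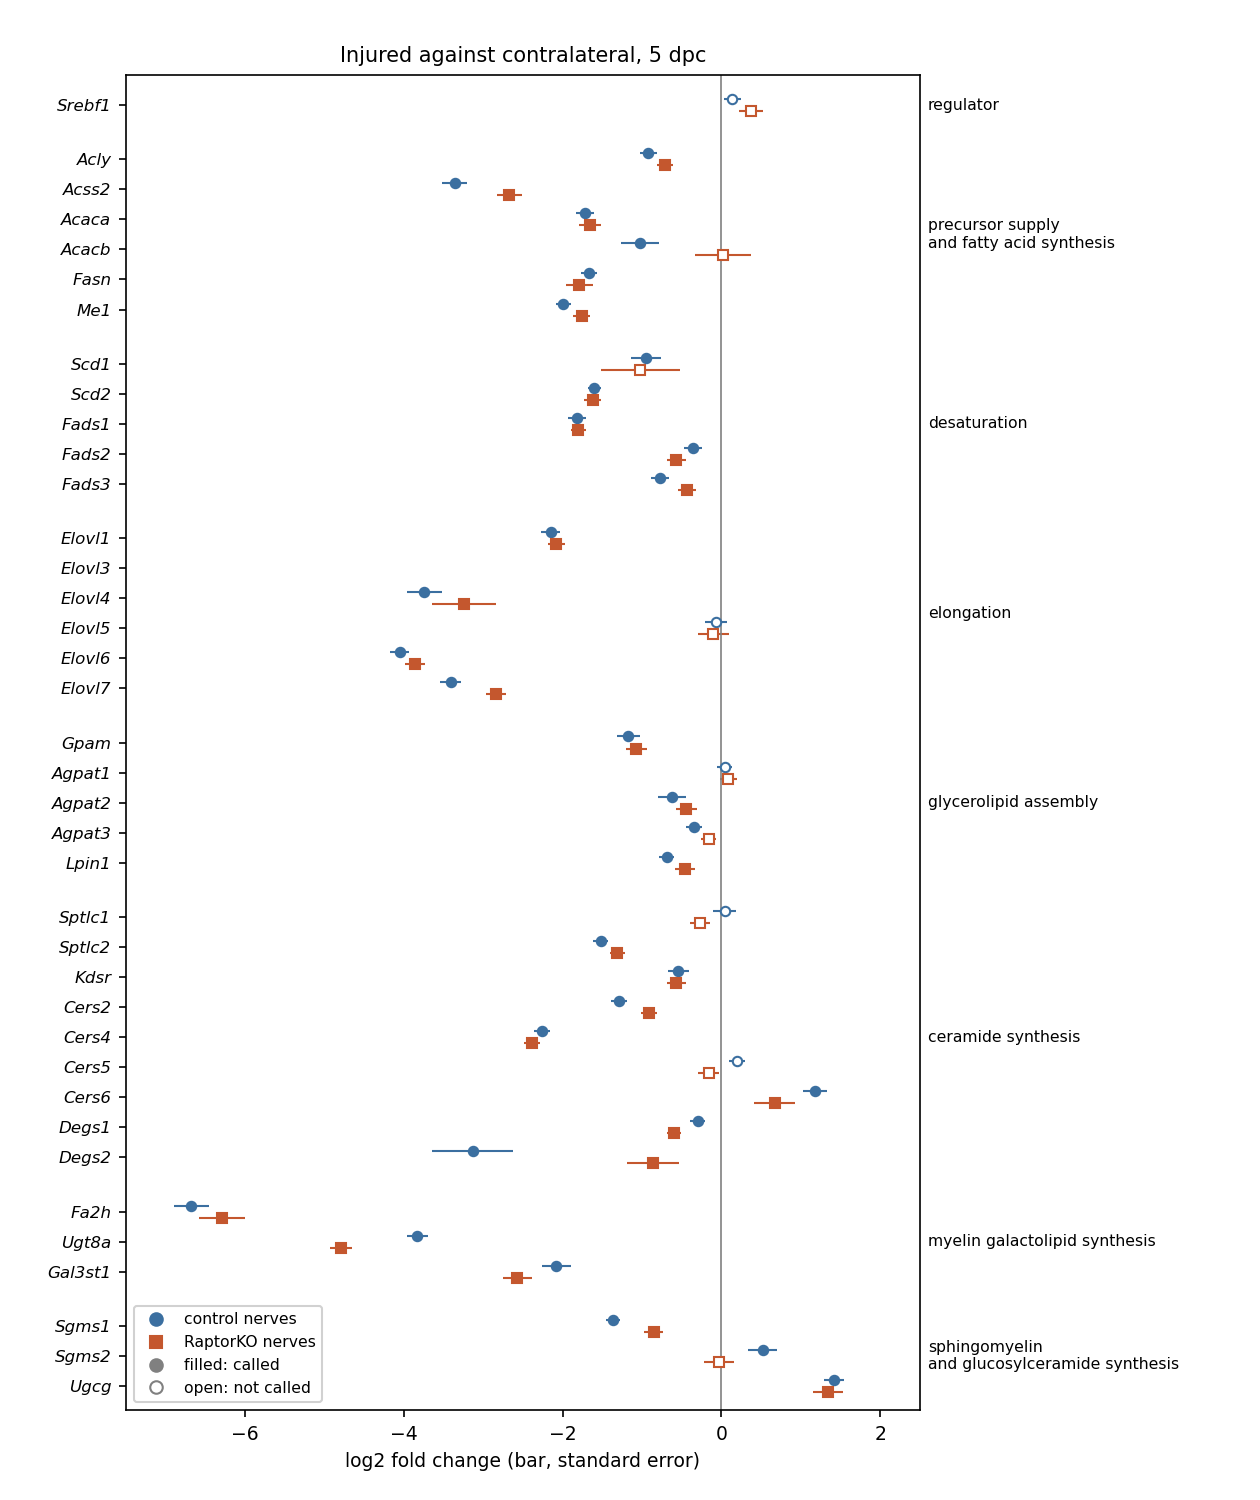
Log2 fold change of injured against contralateral nerves (points) with its standard error (bars) for each member, by role, in control (blue circles) and RaptorKO (orange squares) nerves, filled where called. Fa2h lies farthest to the left at -6.68 and -6.29, Ugcg and Cers6 lie right of 0 in both genotypes, and Ugt8a is lower in RaptorKO (-4.79) than in control nerves (-3.83).

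Whether the injury response itself differed between genotypes was tested as an interaction. Ugt8a was the only one of 37 members called, with an interaction of -0.98 (SE 0.17, adjusted p = 0.00718), so that its fall was larger in RaptorKO nerves. Over 12851 genes, 1.41% were called lower and 1.07% higher, beside 1 of 37 members. It was called in each of the 13 fits that left out 1 library. Scd2 (-0.04, 95% confidence interval -0.32 to 0.24) and Elovl6 (0.17, 95% confidence interval -0.16 to 0.50) showed no interaction past the threshold. For Acss2 (0.67, adjusted p = 0.14), Elovl7 (0.55, adjusted p = 0.136), and Cers2 (0.37, adjusted p = 0.18), the difference between the sides in the effect of genotype was not established. Degs2, chosen here after its values were seen, came closest among the others. Its transcript was at 0.275, 0.921, and 0.393 CPM in injured controls and 3.57, 2.84, and 1.75 CPM in injured RaptorKO nerves, and the interaction of 2.25 (SE 0.59) had an adjusted p of 0.0565. Without control injured 2 it was called (2.90, adjusted p = 0.0367), as it was without RaptorKO injured 3 (2.47, adjusted p = 0.0435). Degs2 overlaps Evl on the other strand. Acacb was called without RaptorKO contralateral 3 (1.49, adjusted p = 0.0303) but not without all 3 libraries above 5 CPM of Adipoq (1.52, adjusted p = 0.0911), and Sgms1 without RaptorKO contralateral 2.

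The fall after crush went with other lists. Over all genes tested, 32.9% were lower and 32.4% higher in control nerves, and 28.5% lower and 30.5% higher in RaptorKO nerves. In control nerves 21 of 22 sterol synthesis genes were lower (median -2.64), with Hmgcs1 (-4.45) among them, and 15 of 15 structural myelin genes were lower, from a sum of 97262 to 107252 CPM to one of 3588 to 4482 CPM. Of 12 SREBP regulators 8 were lower and 1 higher, led by Insig1 (-2.90), which retains SREBP in the endoplasmic reticulum, and Srebf2 (-2.38), which encodes the sterol-directed SREBP2. Sphingolipid breakdown genes went the other way, with 9 of 19 higher (47.4%) and 2 lower (10.5%). Among the higher were Psap (2.34), Hexa (2.24), a lysosomal hydrolase subunit, and Sgpl1 (1.89), which cleaves sphingosine 1-phosphate. Macrophage markers were higher for 18 of 18, from 268 to 304 CPM in sum to 5571 to 6298 CPM. Of 34 further synthesis genes 16 were lower (47.1%) and 9 higher (26.5%), with B4galt5 (2.72), which makes lactosylceramide from the product of Ugcg, rising the most. Fatty acid oxidation genes were mixed, with 10 of 25 lower (40.0%) and 7 higher (28.0%). In RaptorKO nerves 21 of 22 sterol synthesis genes were lower, 13 of 15 structural myelin genes were lower and 1 was higher, and 9 of 19 sphingolipid breakdown genes were higher and 1 lower. How much of each member's change came from such shifts in cell content was not tested.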

How the data were processed

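RNA was sequenced from 13 whole sciatic nerves, 1 library per nerve, and groups were taken from the sample labels. Per the labels and the study's methods, the authors trimmed reads with Trimmomatic, aligned them to GRCm38, and deposited expected counts per gene from RSEM 1.2.22, not normalized. A stranded kit was used, and whether counting used strand is not stated in the sources used here. Between 24.9% and 27.9% of the nonzero values per library were not whole, and values were rounded. Of 40787 genes, 40634 matched GENCODE M21, from which coordinates and exon lengths were taken. Genes with 50 or more counts in at least 2 libraries of a comparison were tested with edgeR 4.0.16 (TMM scaling, quasi-likelihood test, Benjamini-Hochberg adjustment) in R 4.3.3, within the libraries compared, and calls needed both an adjusted p under 0.05 and more than a 1.2-fold change. Standard errors were the fold change divided by the square root of F, both from that fit. CPM values use TMM factors over all 13 libraries. DESeq2 1.42.0, edgeR's exact test (the study's test), other scaling, filters, thresholds, and left-out libraries were alternatives. The steps were tested on simulated counts. Figures were drawn with matplotlib 3.10.9.

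The member genes and lists were chosen with earlier results of these data known. Values of each library are given for members called in a genotype comparison or in the interaction, for the 2 largest changes in each direction after injury in controls, and for Srebf1, Fasn, Scd1, Scd2, Fa2h, and Ugt8a. This holds for at most 8 members per direction, and the values of Acly, Gal3st1, and Degs2 were added after they were seen. Of other lists, at most 4 genes with the smallest p in a comparison are named. Some of these are not reported here. Leaving out the libraries above 5 CPM of Adipoq, and the adipocyte covariate (log2 of the summed CPM plus 1), were chosen after seeing the data. The labels do not say that the libraries of a group came from separate mice beyond their numbers. The study's figure legend counts 4 mice for RaptorKO contralateral nerves and 3 for each other group. The p-values measure the spread between these libraries. No 2 libraries agreed within sampling noise. The crush was unilateral, and the sample names give both nerves of a mouse 1 number within a genotype, so the sides were paired in an alternative with the number as a block. The deviations of paired nerves from their group means correlated at 0.094, 0.103, and 0.306 in controls and at -0.027, 0.25, and 0.191 in RaptorKO nerves. Across genotypes a number is only a name.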

Additional observations from a re-analysis of the deposited data

Results flagged for a closer look

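In RaptorKO contralateral nerves, 2 of 37 members checked had a library that stood apart from the other 3 of its group by Dixon's criterion, and chance alone flags about 1 in 20 such groups. Scd1 was at 1440 CPM in RaptorKO contralateral 3, where the others held 295 to 360 CPM. Acss2 was at 39.3 CPM in the same library, where the others held 35.3 to 35.8 CPM, and all 4 remained below the lowest control value of 55.1 CPM. This library also had the highest adipocyte marker sum, 1447 CPM, and the part of that in the 2 values was not tested.

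The effect of genotype on Ugt8a differed between injured and contralateral nerves by a test of the interaction (-0.98, SE 0.17, adjusted p = 0.00718, edgeR's quasi-likelihood test). Its RaptorKO libraries were lower than all controls after injury in 3 of 3 cases and overlapped them on the contralateral side.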

How the results depend on the processing

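Of the alternatives for single members, 1535 kept the direction and the call, 57 lost the call, 24 gained it, and 22 turned the sign. In contralateral nerves, 5 members were lower at an adjusted p below 0.01, beside 2.18% of all genes tested. When each library was left out, 5 to 10 were lower, beside 2.36% to 6.92% of all genes. With the mouse as a replicate block (RaptorKO contralateral 4 then has no partner and drops out), Degs2 after injury in RaptorKO nerves lost its call (-0.89), and no other call of a member changed in the comparisons of the sides or the interaction. Between genotypes, where equal numbers mark no pair, the replicate block again gave 9 lower members in contralateral nerves, with Fa2h (-0.50) in place of Acly, and the same 4 calls in injured nerves. Of all genes, 7.84% were then lower in contralateral nerves, and 3.52% were lower and 3.09% higher in injured nerves. In injured nerves, 6 members were lower with all 13 libraries in 1 fit, beside 5.39% of all genes. Without a count filter 2 were higher, the second being Degs2, beside 3.94% of all genes. After injury in RaptorKO nerves, 1 member was higher at an adjusted p below 0.01, beside 23.1% of all genes. With each library left out 1 to 3 were higher, beside 25.6% to 29.0% of all genes. For the interaction, 1 member (Degs2) was higher with DESeq2 and without a count filter, beside 1.91% and 0.809% of all genes. With each library left out 0 to 1 were higher (Degs2, Acacb, or Sgms1), beside 0.422% to 0.97% of all genes. DESeq2 gave 11 lower members in contralateral nerves, beside 7.32% of all genes. Signs turned for values near 0 or resting on RaptorKO contralateral 3. With each library left out in turn, contralateral Acacb ranged from -0.31 to 0.35 (-0.31 without RaptorKO contralateral 3, -0.01 without control contralateral 2) and contralateral Scd1 from -0.64 (without RaptorKO contralateral 3) to 0.50. Injured Acss2 ranged from -0.21 to 0.12, injured Fa2h from -0.43 to 0.24, and injured Srebf1 from -0.21 to 0.03. The interaction ranged from -0.05 to 0.62 for Fa2h, -0.27 to 0.01 for Fasn, -0.11 to 0.02 for Scd2, and -0.34 to 0.79 for Scd1. Without the libraries above 5 CPM of Adipoq, Acacb was -0.22 and Scd1 -0.39 in contralateral nerves. For the interaction, the replicate block gave 0.13 for Scd1 and 0.02 for Scd2, and leaving out the libraries above 5 CPM of Adipoq gave 0.67 for Scd1. The cause of these changes was not tested. With 3 or 4 libraries per group, small fold changes and low transcripts such as Degs2, Elovl3, and, in injured nerves, Elovl4 were at the limit of detection. The exact test and the joint fit were not run for the interaction.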
